A study of Rattus norvegicus with 6 samples.

Results

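The insulin-like growth factor (IGF) system of the liver and the growth hormone signalling that drives it were examined in rats resuscitated after hemorrhage. The members were 10 genes chosen by name: the ligands Igf1 and Igf2, the binding proteins Igfbp1 to Igfbp4 and Igfals, the growth hormone receptor Ghr, and the feedback inhibitors Socs2 and Cish. Each was matched by its RefSeq transcript to a row of the expression table, and 9 of the 10 were found among 19345 rows, of which 7223 carried a gene symbol. Cish was not matched to a row and has no value here. Where a gene had several rows, the row with the highest mean over all 6 arrays was used. That mean is the measured value the choice rests on, and it decided only the row of Igf1, since the other 8 genes had 1 row each.

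The animals were male Sprague-Dawley (SD) rats with an age label of 90 and 120 days. All had uncontrolled hemorrhagic shock from tail amputation and received Ringer's solution, a balanced salt solution, from that moment. In the limited group (n = 3 arrays) the infusion aimed at a mean arterial pressure of 50 to 60 mmHg, and in the aggressive group (n = 3 arrays) at over 80 mmHg. Livers were taken at 330 min and each array, a single-colour Cy3 NimbleGen array, held the RNA of 1 sample. Unbled animals were not analysed here, so each value compares the regimens with each other and no value gives the distance from a normal liver.

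Array medians lay between 212 and 245 on the linear intensity scale left by RMA, a method that corrects background, normalizes between arrays and summarizes probes. All 10 hepatocyte markers, among them albumin (Alb), transthyretin (Ttr) and transferrin (Tf), were measured at intensities of at least 5064 in every array, and the hepatocyte list summed to between 311536 and 342823. Aggressive arrays 1 and 3 also carried lung transcripts: surfactant protein C (Sftpc) was 1247 and 1734 there, against 33.7 in aggressive array 2 and 30.3 to 57 in the limited arrays. Some differences are therefore also given against aggressive array 2 alone, which is 1 sample. The 5 measured cholangiocyte markers summed to 578 to 831 and 617 to 792 in the limited and aggressive arrays, and the 5 measured lymphocyte markers to 438 to 499 and 517 to 645. No detection calls came with the values, so 3 arrays a group set the precision, and "dim" below means a row mean under the median of all row means.

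As background, growth hormone binds its receptor on hepatocytes and activates the kinase JAK2 and the transcription factor STAT5, which induces Igf1, Igfals, Socs2 and Cish. Circulating IGF1 is carried mostly in a complex with IGFBP3 and the acid-labile subunit encoded by Igfals, while IGFBP1 is a small, quickly regulated carrier. Igfbp1 transcription in liver is repressed by insulin through FOXO proteins and raised by fasting, glucocorticoids and cAMP, and the promoter carries an insulin response element close to the transcription start.

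That element is what the sequence of the Igfbp1 promoter shows, so the promoter is given beside that of Igfbp3, which is the next gene on rat chromosome 14 and is read from the other strand. Both are RefSeq windows of the GRCr8 assembly, from 250 bases before to 50 bases after the gene's start, printed 5′ to 3′ on the strand of the gene. The Igfbp1 window is chr14:86261027-86261326 (+) and the Igfbp3 window is chr14:86277895-86278194 (-). Capitals mark matches, on either strand, to CAAAACA, a FOXO-type core, and to TTATTTTG, the opposing part of the element.
Igfbp1: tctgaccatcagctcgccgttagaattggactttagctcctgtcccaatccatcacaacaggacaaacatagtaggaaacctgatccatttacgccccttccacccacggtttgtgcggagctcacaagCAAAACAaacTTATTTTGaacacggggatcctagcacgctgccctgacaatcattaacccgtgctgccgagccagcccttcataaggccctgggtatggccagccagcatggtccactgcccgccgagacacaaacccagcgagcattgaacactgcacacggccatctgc
Igfbp3: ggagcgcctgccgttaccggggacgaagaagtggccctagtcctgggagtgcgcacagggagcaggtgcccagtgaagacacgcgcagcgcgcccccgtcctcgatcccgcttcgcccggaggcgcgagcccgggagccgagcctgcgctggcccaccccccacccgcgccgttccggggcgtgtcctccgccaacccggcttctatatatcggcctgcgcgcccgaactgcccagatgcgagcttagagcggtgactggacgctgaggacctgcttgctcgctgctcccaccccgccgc

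In Igfbp1 the CAAAACA began 121 bases and the TTATTTTG 111 bases before the start, without overlapping, and the Igfbp3 window had neither. CAAAACA was present in 6.28% and TTATTTTG in 2.02% of 33469 rat promoter windows of this length, and both were present in 60 windows (0.179%). Among members, the Igf1 window also held CAAAACA, 67 bases before the start, and so did that of Cish. Of the other genes named below, G6pc1 and 1 of the 2 windows of Prlr held CAAAACA and 1 of the 3 windows of Crem held TTATTTTG. The stretches around CAAAACA, with the same capitals, are shown for 3 genes described below, to set the element of Igfbp1 beside single matches. They lie at chr14:86261145-86261184 (+) for Igfbp1, chr7:24172454-24172493 (+) for Igf1 and chr10:86807462-86807501 (+) for G6pc1, the catalytic subunit of glucose-6-phosphatase, where the match is on the opposite strand.
Igfbp1: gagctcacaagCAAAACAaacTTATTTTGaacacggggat
Igf1: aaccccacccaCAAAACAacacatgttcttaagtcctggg
G6pc1: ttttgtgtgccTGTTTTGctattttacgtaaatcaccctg

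These matches describe letters in a window and not sites shown to be bound. The spaced motif TTCNNNGAA, read by STAT proteins, was found in 8.87% of windows. It occurred 4 times in the Cish window and in no window of the other members. A count of at least 4, a cut equal to that of Cish itself, was met by 2 of the 33469 windows. Socs2 had no window in the table. The cAMP response element TGACGTCA, found in 1.83% of windows, was in none of the members' windows but in 2 of the 3 windows of Crem and in that of Ppargc1a.

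The comparison asked whether hepatic expression of these genes depended on the pressure target. In limma's moderated test, with Benjamini-Hochberg adjustment over all 19345 rows, 0 of 9 members had an adjusted p under 0.05, where the background over all rows was 0.114%. An unadjusted p under 0.05 was reached by 2 members, Igfbp1 and Igfbp3, against 13.1% of all rows. The limited and aggressive arrays did not overlap in 3 of the 9 members, 2 higher (Igfbp3 and Igfals) and 1 lower (Igfbp1) under limited resuscitation, against 19.8% of all rows (10.0% higher and 9.76% lower). The median log2 difference of the members, limited minus aggressive, was 0.02, against 0.01 over all rows. The members were assembled with earlier results of these data known, so these values and the p-values below are given as a description.

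**Figure D1:**
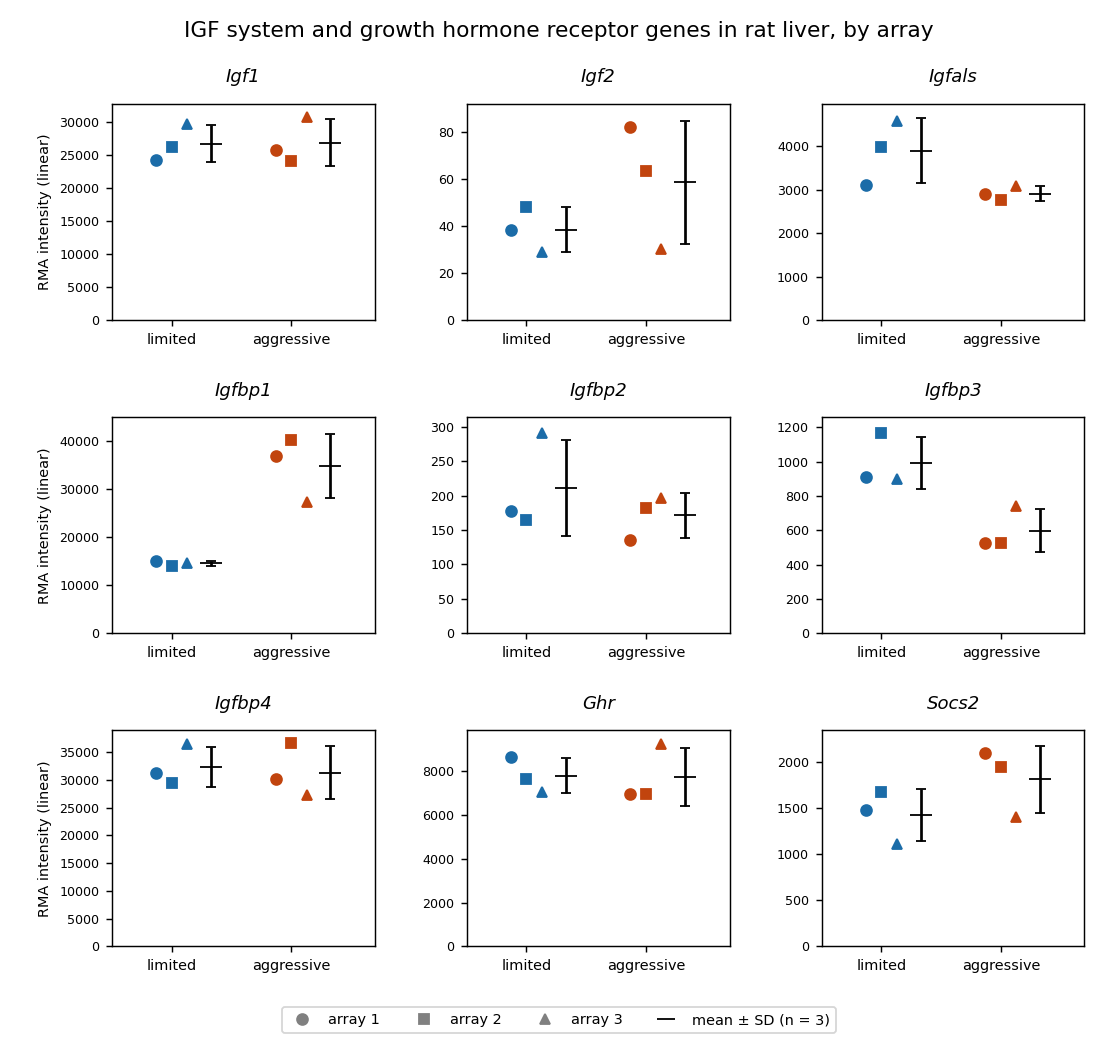
RMA intensity (linear scale, axis from 0) of the 9 measured genes in each of the 3 limited and 3 aggressive arrays, with the group mean ± SD (n = 3) beside the points. Igfbp1 lay between 13904 and 14909 in the limited arrays and between 27186 and 40055 in the aggressive arrays, while the groups overlapped for Igf1, Igf2, Igfbp2, Igfbp4, Ghr and Socs2.

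Of the ligands, Igf1, the main mediator of growth hormone's effect on growth, was bright and had nearly the same mean in both groups. Its intensity was 24152, 26170 and 29699 in limited arrays 1 to 3 and 25745, 24004 and 30764 in aggressive arrays 1 to 3. The groups overlapped throughout, and the means were 26674 ± 2808 (SD, n = 3) and 26838 ± 3510 (SD, n = 3). The log2 difference was -0.01, with a 95% interval of -0.46 to 0.45 (adjusted p = 0.994, limma), so differences up to the ends of that interval were not resolved by 3 arrays a group.

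The other Igf1 rows are transcript variants, and where their probes lie was not known here. One, NM_178866, lay at 24220 to 25945 in the limited and 23297 to 27324 in the aggressive arrays, with a log2 difference of -0.02. The other, NM_001082478, lay at 26232 to 29739 and 19585 to 24165, without overlap, with a log2 difference of 0.34 (95% interval -0.09 to 0.77, adjusted p = 0.48, limma). The variants therefore did not show the same order of the groups, although none of the 3 rows passed the test. Averaging the 3 rows gave a difference of 0.10.

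Igf2, a ligand expressed mainly before birth in rodents, was dim in these adult livers, below every array's median. It was 38.1, 48.1 and 29 in the limited and 81.9, 63.4 and 30.2 in the aggressive arrays. Aggressive array 3 fell within the limited range, and the difference of -0.52 (95% interval -1.44 to 0.40, adjusted p = 0.63, limma) was within the spread of the arrays.

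Igfbp1, the insulin-repressed carrier, had the largest difference of the 9 members. Its intensity was 14909, 13904 and 14638 in the limited arrays, a spread of 0.05 (SD, log2 scale), and 36755, 40055 and 27186 in the aggressive arrays, a spread of 0.29. Every aggressive array lay above every limited array, and the lowest aggressive value was in array 3. The means were 14484 ± 520 (SD, n = 3) in the limited arrays and 34665 ± 6684 (SD, n = 3) in the aggressive ones. The log2 difference was -1.24 (SE 0.21, 95% interval -1.73 to -0.75), which is 2.36-fold between geometric means.

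The Igfbp1 difference did not pass after adjustment over all rows (unadjusted p = 0.000495, adjusted p = 0.0912, limma). It did pass when the variance prior was allowed to follow intensity (adjusted p = 1.91e-06, limma with trend and robust prior), a setting that called 2.95% of all rows, and when rows of low mean were left out (adjusted p = 0.00118, limma), a setting that called 4.99% of 9673 rows. Leaving out any 1 array kept the difference between -1.41 and -1.13, with adjusted p between 0.165 and 0.287 in limma. Against aggressive array 2, where surfactant transcripts were low, the difference was -1.47, and this array held the highest Igfbp1 value of all 6.

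Igfbp3, which carries most circulating IGF1, was on the other side of 0. Its intensity was 910, 1165 and 898 in the limited and 528, 525 and 743 in the aggressive arrays. The groups did not overlap, and aggressive array 3 was again the aggressive array nearest to the limited ones. The means were 991 ± 151 (SD, n = 3) and 599 ± 125 (SD, n = 3), and the log2 difference was 0.74 (SE 0.22, 95% interval 0.21 to 1.26), which did not pass (unadjusted p = 0.0129, adjusted p = 0.259, limma). It passed with the intensity trend and robust prior (adjusted p = 0.0346, limma) and without dim rows (adjusted p = 0.0403, limma). Against aggressive array 2 alone it was 0.91.

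In rat liver Igfbp3 is made chiefly by non-parenchymal cells, so markers of those cells were measured on the same arrays. All 9 measured Kupffer cell and macrophage markers lay above 0 and their median was 0.73 on the log2 scale. In limma 0 of them passed over all rows, and 6 had an unadjusted p under 0.05, against 13.1% of all rows. The summed intensity of these markers was 43962 to 50988 in the limited and 29309 to 34427 in the aggressive arrays, without overlap. Among the brightest of them, Cd5l, a macrophage-secreted protein, was 11738 ± 1192 (SD, n = 3) in the limited arrays and 6374 ± 570 (SD, n = 3) in the aggressive ones, while Cd68, a lysosomal macrophage protein, overlapped between groups at 12180 to 15633 and 9196 to 13465.

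The 4 measured endothelial markers, of 12 listed, summed to 2888 to 3408 and 2843 to 3813, and these ranges overlapped. The 11 measured stellate cell and fibroblast markers summed to 10214 to 11314 and 7719 to 9543, without overlap. The brightest of them, the collagen gene Col3a1, had a log2 difference of 0.66 (adjusted p = 0.219, limma). Of these markers 7 lay above 0 and 4 below, and their median was 0.12 on the log2 scale. The part of these cell types in the Igfbp3 difference was not tested, and in bulk tissue fewer cells of a type and less RNA per cell cannot be told apart.

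Igfals, the hepatocyte subunit that completes the IGF1 and IGFBP3 complex, was 3112, 3986 and 4585 in the limited and 2891, 2748 and 3085 in the aggressive arrays. The groups were separated only by the narrow step from 3085 to 3112. The log2 difference of 0.40 had a 95% interval of -0.08 to 0.89 and did not pass (adjusted p = 0.461, limma).

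Igfbp2 and Igfbp4, the remaining carriers, showed no separation. Igfbp2 was dim, at 177, 164 and 291 in the limited and 135, 182 and 197 in the aggressive arrays, and limited array 3 stood above the rest. Its log2 difference of 0.27 (95% interval -0.39 to 0.93) was 0.01 without that array. Igfbp4, a bright hepatic transcript, was 31244, 29520 and 36421 in the limited and 30168, 36564 and 27204 in the aggressive arrays, a log2 difference of 0.05 (95% interval -0.42 to 0.53, adjusted p = 0.936, limma) with no fixed sign, being -0.18 against aggressive array 2 alone. The 4 carriers thus had differences from -1.24 to 0.74 in the same livers, and the neighbours Igfbp1 and Igfbp3 lay at its ends.

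**Figure D2:**
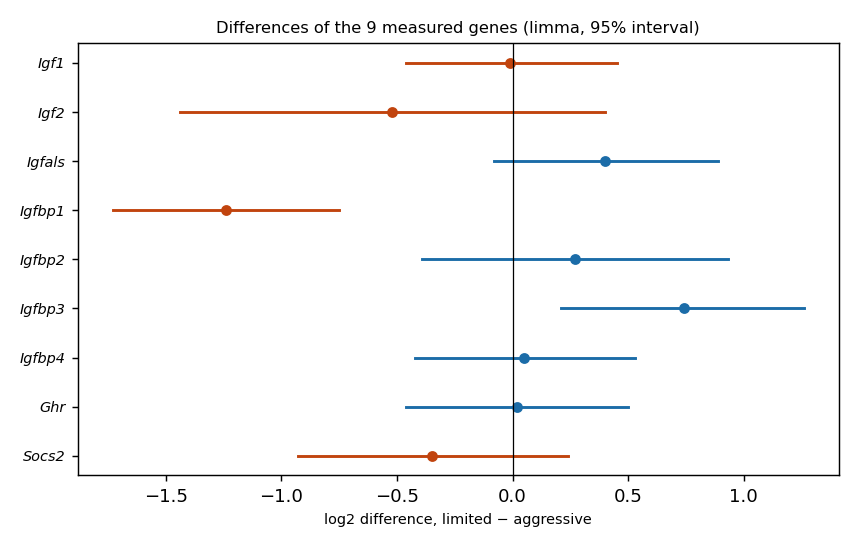
Log2 difference of limited minus aggressive for the 9 measured genes (points) with limma's 95% interval (lines), blue above 0 and orange below 0. The intervals of Igfbp1 (-1.73 to -0.75) and Igfbp3 (0.21 to 1.26) lay on opposite sides of 0, and the other 7 crossed it.

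The receptor and its inhibitor were measured next. Ghr, the growth hormone receptor, was 8660, 7667 and 7057 in the limited and 6950, 6958 and 9255 in the aggressive arrays, with means of 7795 ± 809 (SD, n = 3) and 7721 ± 1329 (SD, n = 3). Its groups overlapped and the log2 difference was 0.02 (95% interval -0.46 to 0.50, adjusted p = 0.977, limma). Socs2, a STAT5-induced inhibitor of the receptor, was 1481, 1677 and 1115 in the limited and 2094, 1942 and 1398 in the aggressive arrays. In Socs2 aggressive array 3 lay within the limited range, and the log2 difference of -0.35 (95% interval -0.93 to 0.24, adjusted p = 0.61, limma) did not pass. Against aggressive array 2 alone the members not yet given so were 0.15 for Igf1, -0.75 for Igf2, 0.48 for Igfals, 0.16 for Igfbp2, 0.16 for Ghr and -0.47 for Socs2 on the log2 scale.

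Across members, aggressive array 3 was the lowest aggressive array for Igfbp1, Igfbp4, Igf2 and Socs2 and the highest for Igf1, Igfbp2, Igfbp3, Igfals and Ghr. Its lung markers were the highest of the series, with a list sum of 7819 against 5486 and 1810 in aggressive arrays 1 and 2 and 575 to 794 in the limited arrays. The lung list followed genes seen in earlier results of these data. It held the 1 gene of all the lists that passed, the carbonic anhydrase Car4 (log2 difference -2.78, adjusted p = 0.0348, limma). Of the same list, the podoplanin gene Pdpn and surfactant gene Sftpb differed by -2.52 and -1.72 without passing. Car4 (695, 802 and 970 in aggressive arrays 1 to 3, against 119 ± 15.9, SD, n = 3, in the limited arrays) and Pdpn (1049, 739 and 1088, against 76.4 to 360) were high in array 2 as well. Sftpb was 664, 27.3 and 754, and its difference was 1.41 against array 2 alone. The median of the 11 lung markers was -2.20, and -0.09 against array 2 alone. Array 2 was low in surfactant transcripts and in other lung markers such as Ager (39) and Cldn5 (23.3), but not in Car4 and Pdpn. Ager was 388 and 610, and Cldn5 388 and 767, in aggressive arrays 1 and 3. The part of lung RNA in the members' values was not tested.

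The wider IGF system was read from a list of 20 ligands, receptors, carriers and proteases, of which 15 were measured and 8 were not members. In this list 0 genes passed over all rows in limma, and the median was 0.05. An unadjusted p under 0.05 (limma) was reached by 1 higher and 2 lower genes, against 13.1% of all rows. The insulin receptor Insr was 386, 408 and 338 in the limited and 515, 502 and 541 in the aggressive arrays, without overlap, a log2 difference of -0.47 (adjusted p = 0.342, limma). The IGF1 receptor Igf1r was dim and overlapped, at 147 to 234 and 181 to 230. Htra1, a protease that cleaves IGF binding proteins, overlapped as well, with a difference of 0.21. Igfbp6 and Stc1, an inhibitor of the protease that cleaves IGFBP4, were dim, with differences of 0.42 and 0.40 and overlapping groups. With 1 array left out Igfbp6 ranged from 0.07 (without aggressive array 2) to 0.76 (without limited array 3) and Stc1 from 0.20 (without limited array 1) to 0.70 (without limited array 2), and Igfbp6 was 1.11 against aggressive array 2 alone.

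In the list of growth hormone and prolactin receptor signalling, 18 of 20 genes were measured, 0 passed in limma, and the median was -0.06. An unadjusted p under 0.05 (limma) was reached by 1 higher and 0 lower genes, against 13.1% of all rows. The largest difference was that of Prlr, the prolactin receptor, a relative of the growth hormone receptor. Its brighter row, still dim, was 261, 389 and 339 in the limited and 94.4, 128 and 159 in the aggressive arrays. These groups did not overlap, and the log2 difference was 1.39 (SE 0.26, 95% interval 0.77 to 2.00, adjusted p = 0.12, limma). Prlr passed with the intensity trend and robust prior (adjusted p = 0.00527, limma), and its other row, at 55.1 to 85.8 against 26 to 51.8, differed by 0.87 in the same direction.

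The other named signalling genes had smaller differences than Prlr. Stat5b, the main STAT5 of hepatocytes, was 730 ± 74.9 (SD, n = 3) in the limited arrays and 912 ± 41.8 (SD, n = 3) in the aggressive ones, which is -0.33 on the log2 scale without overlap (adjusted p = 0.489, limma). The phosphatase Ptpn6 differed by 0.44 without overlap and the inhibitor Socs1 by 0.63 with overlap, neither passing.

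Liver genes known to depend on growth hormone or STAT5 were listed as a readout of the axis, and 18 of 22 were measured, 14 of them not members. None passed over all rows in limma (0 of 18, with 3 higher and 2 lower at an unadjusted p under 0.05, against 13.1% of all rows). The groups did not overlap in 6 higher and 2 lower genes, against 19.8% of all rows, and the median was 0.03. In rats the pulsatile male and continuous female secretion of growth hormone set sex-dependent liver genes. Genes known to be higher in female rat liver are Prlr, the steroid reductase Srd5a1 and the steroid hydroxylase Cyp2c12, while the cytochromes Cyp2c13 and Cyp3a2 are known as male forms.

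Srd5a1 was 1731, 1995 and 2195 in the limited and 1203, 1009 and 1233 in the aggressive arrays, without overlap, a log2 difference of 0.78 (SE 0.19, adjusted p = 0.187, limma). Cyp2c12 was 4875, 4569 and 4344 against 2393, 3900 and 2469, a difference of 0.69 (adjusted p = 0.303, limma) that was 0.24 against aggressive array 2 alone. The rats were male, and where the probes of the Cyp2c12 row lie was not known here. Whether this row also reads other Cyp2c transcripts was not tested. Srd5a1 and Cyp2c12 both passed with the intensity trend and robust prior, at adjusted p = 0.00758 and 0.0242 (limma).

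Cyp2c13 and Cyp3a2 lay on the other side of 0. Cyp2c13 was 19678, 17104 and 17926 in the limited and 24416, 25174 and 23231 in the aggressive arrays, a log2 difference of -0.41 (adjusted p = 0.372, limma). Cyp3a2 was 22251, 19381 and 25085 against 30869, 28720 and 30266, a difference of -0.44 (adjusted p = 0.379, limma). Both were free of overlap and neither passed under any setting tried. Some other sex-dependent genes of the list, picked after their values were seen, had the opposite signs. The male forms Cyp2c11, Cyp2a2 and Hsd3b5 differed by 0.17, 0.14 and 0.38, and A1bg, higher in female rat liver, by -0.42, none passing (limma). A1bg was dim and its groups overlapped, at 35.2 to 72.9 in the limited and 47.1 to 96.1 in the aggressive arrays. With 1 array left out its difference ranged from -0.74 to -0.10. Obp3 and Cyp2c7, also of the list but not among the genes picked for opposite signs, differed by -0.23 and 0.05 with overlapping groups. Cyp2c11 was 18247 to 18965 in the limited and 15572 to 17957 in the aggressive arrays. Sex-dependent genes were not a list of their own and were not tested as a group.

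Genes of insulin, FOXO and cAMP signalling, to which Igfbp1 is known to answer, were listed last, and 20 of 26 were measured. The list also held the enzyme genes Pck1 and G6pc1, which are not themselves such signals. Irs2, Foxo1 and Foxo3 were among the listed genes not matched. None passed over all rows in limma (0 of 20, with 1 higher and 7 lower at an unadjusted p under 0.05, against 13.1% of all rows). The groups did not overlap in 3 higher and 9 lower genes, against 19.8% of all rows, and the median was -0.15, against 0.01 over all rows. With the intensity trend and robust prior 3 of the 20 passed, all lower under limited resuscitation: Crem, G6pc1 and Pck1.

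Crem, a transcription factor of cAMP responses, was 2245, 1871 and 2049 in the limited and 4585, 4065 and 4317 in the aggressive arrays. No array overlapped, and the log2 difference was -1.07 (SE 0.18, adjusted p = 0.0901, limma), or -0.99 against aggressive array 2 alone. G6pc1, the glucose-6-phosphatase gene whose promoter stretch is printed above, was 10173, 10256 and 11385 against 18171, 24958 and 23813, a difference of -1.06 (SE 0.20, adjusted p = 0.118, limma), or -1.24 against array 2 alone. Both differences had the sign of that of Igfbp1 and lay within its 95% interval.

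Ppargc1a, the coactivator that drives gluconeogenesis, was dim, at 48.7, 58.5 and 37.6 against 78.5, 142 and 91.8, with a log2 difference of -1.09 (adjusted p = 0.209, limma). Pck1, which encodes a gluconeogenic carboxykinase and is repressed by insulin, was 20159, 21844 and 25234 against 33948, 40171 and 27096, and like Igfbp1 it was lowest among the aggressive arrays in array 3. Irs1, an adaptor of the insulin receptor, was 548, 384 and 409 against 650, 688 and 657, a difference of -0.59 (adjusted p = 0.301, limma). All 3 lay lower in every limited array than in any aggressive array.

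**Figure D3:**
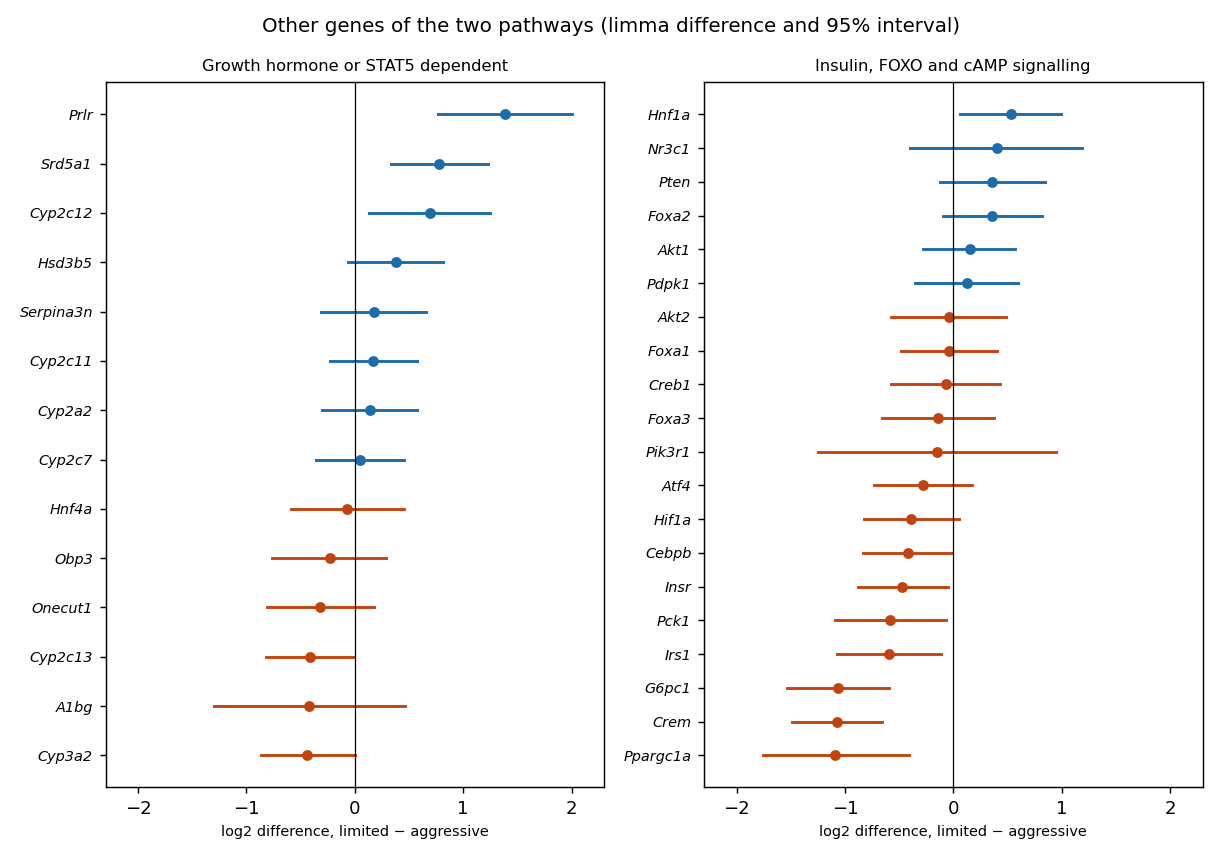
Log2 difference of limited minus aggressive (points) with limma's 95% interval (lines) for the measured genes of 2 lists that are not members, blue above 0 and orange below 0. Growth hormone or STAT5 dependent genes (left) ran from Prlr at 1.39 to Cyp3a2 at -0.44, and insulin, FOXO and cAMP genes (right) had 14 of 20 points below 0.

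The genes whose profile over the 6 arrays was most like that of a member were sought among 4447 named genes with a mean above the median of all rows. Those most like Igfbp1 on the log2 scale were Ddhd1, a phospholipase (Pearson r = 0.997), Cflar, an inhibitor of caspase activation (0.994), the transcription factor Klf6 (0.993) and Osbpl2, a lipid-binding protein (0.990). Their differences ran from -1.13 for Klf6 to -0.46 for Ddhd1, and none of these passed the test (adjusted p between 0.0909 and 0.337, limma). Those most like Igfbp3 were Aldh3a2, a fatty aldehyde dehydrogenase (0.996), Gna12, a G protein subunit (0.993), Bco1, a carotenoid oxygenase (0.989), Pgpep1, a peptidase (0.988), and Ak4, an adenylate kinase (0.986).

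Those most like Igf2 were Cryzl1, Ing3, Cyp2d3, Hcls1 and Hgf, which encodes hepatocyte growth factor, at 0.968 to 0.987. These correlations rest on 6 arrays that share the group difference and are a description.

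**Figure D4:**
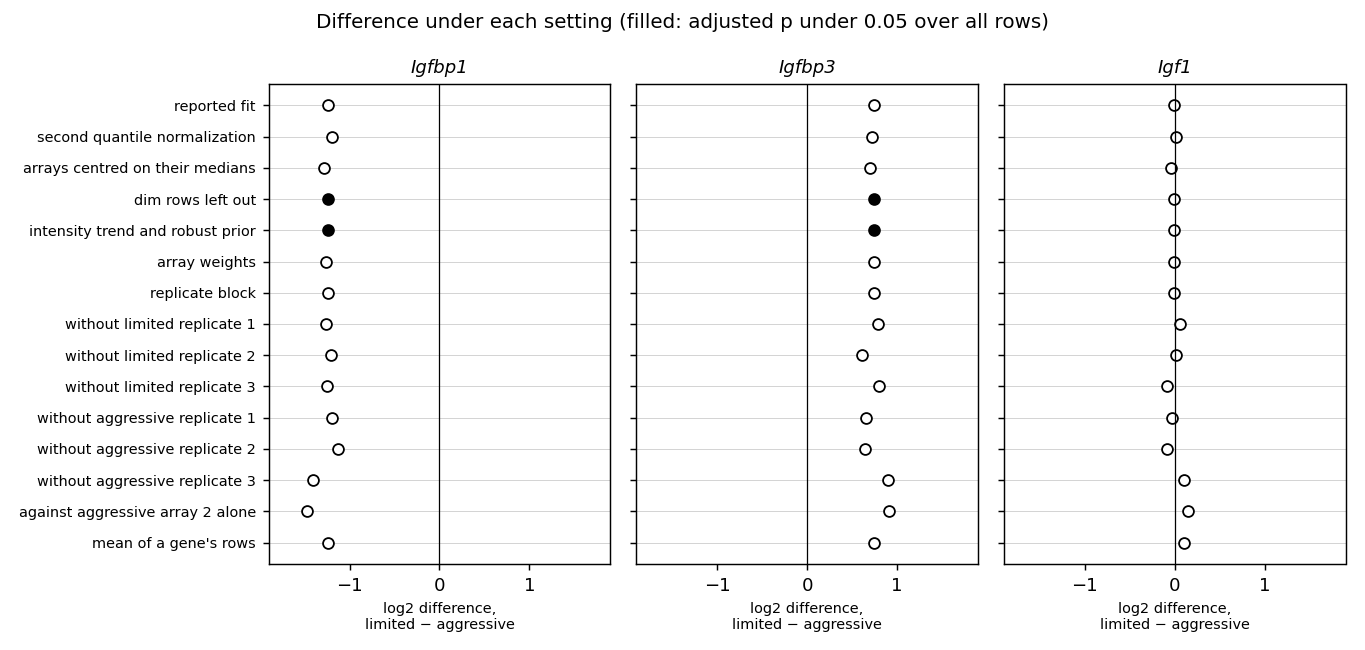
Log2 difference of limited minus aggressive for Igfbp1, Igfbp3 and Igf1 under the reported fit and each alternative setting, filled where the adjusted p over all rows was under 0.05. Igfbp1 stayed between -1.47 and -1.13 and Igfbp3 between 0.61 and 0.91, each filled in 2 of 14 alternatives, while Igf1 lay between -0.09 and 0.15.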

How the data were processed

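The authors hybridised liver RNA of 3 limited and 3 aggressive rats to single-colour NimbleGen arrays, per the labels' protocols. Label fields name both Trizol and an RNeasy kit for extraction. The deposited values are intensities on a linear scale, made with RMA per the submitters' processing notes. Not given in the sources used here are its version, the array's annotation and build, and saturation flags. Groups and replicate numbers came from the sample titles. The design text names 3 samples from each group of 6 rats.

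Log2 intensities of all 19345 rows were fitted in R 4.3.3 by limma 3.58.1, using lmFit and then eBayes (4 residual degrees of freedom and 3.26 from the prior). Two-sided p-values were adjusted over all rows by Benjamini-Hochberg, and 0.05 was the threshold. The test was checked on simulated data. Unversioned accessions were named through the GRCr8 RefSeq table, and promoter windows came from the RefSeq table of the same build. The members, gene lists, tests and alternatives were chosen with earlier results of these data known, and the lung list followed genes seen there. Named genes are all members, up to 5 other genes of each pathway list with the smallest unadjusted p, up to 3 of the brightest markers and any marker that passed, and the 5 genes most correlated with each of the 3 members of largest difference; 2 genes this rule names are not reported here. Alternatives were a second quantile normalization, centred arrays, dim rows left out, an intensity trend with robust prior, weighted arrays, a block for the replicate number, the mean of a gene's rows, each array left out, and aggressive array 2 alone. Figures were drawn with matplotlib 3.10.9.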

Additional observations from a re-analysis of the deposited data

How the results depend on the processing

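The members' count of 0 of 9 became 2 of 9 (Igfbp1 and Igfbp3) with the intensity trend and robust prior and 2 of the 7 members tested when dim rows were left out, and stayed 0 in the other 12 alternatives, with 2 or 3 at an unadjusted p under 0.05 in the limma settings that keep 1 row per gene. Over all rows the count of 22 became 570 and 483 under those settings, and 0 with the replicate block (2196 at an unadjusted p under 0.05) or against aggressive array 2 alone (1582), where the lone array is assumed to vary like the limited ones. With 1 array left out it was 0 to 2, the 2 without aggressive replicate 2, and 1913 to 2382 at an unadjusted p under 0.05. Of 110 list genes that were not members, 1 passed (Car4), 14 with the trend and robust prior, 10 without dim rows, 0 with the block or against array 2 alone, and 0 to 2 with 1 array left out.

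Signs turned in 3 members, 1 other IGF gene and 2 lung markers among the differences recomputed. Igf1 (-0.01) was 0.01 after a second quantile normalization, 0.15 against aggressive array 2 alone, 0.10 as the mean of its rows and -0.09 to 0.10 with 1 array left out. Ghr (0.02) was -0.01 with centred arrays and -0.06 to 0.16 with 1 array left out. Igfbp4 (0.05) was -0.18 against array 2 alone and -0.04 to 0.17 with 1 array left out. Against array 2 alone Igf1r (-0.18) was 0.04, and the lung markers Sftpb (-1.72) and Sftpc (-3.30), low in that array, were 1.41 and 0.33. These were 16 of 544 recomputed differences; the causes were not tested.

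Same-numbered arrays deviated together by r = -0.06, -0.05 and 0.05, and 2 of 6 arrays correlated best with their own number, so the numbers were not taken to pair the samples; under the block Igfbp1 was -1.24 (adjusted p = 0.293, limma) and 0 members passed. Igf2 and Igfbp2, below the median row mean, rest on dim signals.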
